A study of Mus musculus with 3 samples.

Results

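Proteasome genes were taken as all genes of the transcript table whose symbol begins with Psma, Psmb, Psmc, Psmd, Psme, Psmf or Psmg. These were 49 of the 23135 genes with a symbol, with 66 of the 50081 transcript models. One of the 49, Psmc3ip, encodes a partner of meiotic recombinases and no proteasome subunit, and it is included in the counts over all 49 (1 model, 8 exons, 922 nt). The series held 3 libraries from wild-type C57BL/6J mouse testes, 1 per group: CAGE, a method for capped 5′ ends, at 10.5 days post partum (dpp) and in adults, and PAS-Seq, a method for polyadenylated 3′ ends, in adults. The series has 1 table of transcript models, with no value per library. How far each library shaped the models, and whether reads of other libraries entered their exons and introns, is not given in these sources. Depth is thus unknown, the ages could not be compared, and nothing below is an expression level or has a replicate error. RefSeq-derived models are also listed for genes of other tissues, so a listed gene need not be transcribed in testis. RNA came from whole testis, so no model can be assigned to a cell type. Germ cell genes of the labelled tissue (Ddx4, Sycp3, Tnp1, Tnp2, Prm1 and Prm2) carried a code other than XX in 6 of 6 cases, and Alb, Myh6 and Gfap of other tissues in 0 of 3, a list chosen with these codes known.

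The proteasome degrades proteins tagged with ubiquitin. Its 20S core is a barrel of outer alpha rings and inner beta rings, and the beta rings hold the proteolytic sites. The 19S regulator binds the ends of the barrel, where a ring of ATPases unfolds substrates and non-ATPase subunits recognise and deubiquitinate them. Immune cells replace the catalytic beta subunits Psmb6, Psmb7 and Psmb5 with Psmb9, Psmb10 and Psmb8, thymic epithelium uses Psmb11, and male germ cells from meiosis onward carry Psma8, a paralogue of Psma7. Psme1 to Psme4 encode activators that can bind in place of the 19S regulator, of which Psme4 (PA200) is known for its part in histone removal in spermatids.

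Models are either RefSeq-derived, with a gene symbol and a RefSeq accession, or CUFF models, named in the form that the Cufflinks assembler gives. CUFF models without any symbol are called CUFF-alone. Each model carries a code that begins with NM, NR or XX (or PG or PI for piRNA-named models), and the sources used here do not say what these codes mean. Of the 66 proteasome models, RefSeq-derived ones made up 53 and CUFF models 13. All coordinates of models are in mm9, counted from 1.

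Several promoters carried the results below, because a second transcript starts there or because a CUFF model starts far from RefSeq. The first set shows 3 proteasome genes whose RefSeq start faces a RefSeq start on the other strand at the same distance in the mm9 table and in the RefSeq promoter tables of GRCm38.p6. Each window runs from 250 bases before the start of the proteasome gene to 50 bases into it, on the strand of that gene, and capitals mark the bases between both starts. They are Psma2 against Mrpl32 (chr13:14612992-14613291, plus strand, 204 bases between), Psmb9 against Tap1 (chr17:34187281-34187580, minus strand, 225 bases) and Psmd13 against Sirt3 (chr7:140882144-140882443, plus strand, 84 bases).
Psma2: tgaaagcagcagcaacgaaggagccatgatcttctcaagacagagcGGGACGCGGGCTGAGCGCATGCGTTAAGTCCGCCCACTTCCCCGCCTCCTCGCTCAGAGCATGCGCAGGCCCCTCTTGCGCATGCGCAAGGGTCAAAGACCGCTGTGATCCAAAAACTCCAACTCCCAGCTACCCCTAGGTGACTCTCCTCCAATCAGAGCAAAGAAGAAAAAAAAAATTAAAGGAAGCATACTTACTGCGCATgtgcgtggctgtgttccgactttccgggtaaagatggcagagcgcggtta
Psmb9: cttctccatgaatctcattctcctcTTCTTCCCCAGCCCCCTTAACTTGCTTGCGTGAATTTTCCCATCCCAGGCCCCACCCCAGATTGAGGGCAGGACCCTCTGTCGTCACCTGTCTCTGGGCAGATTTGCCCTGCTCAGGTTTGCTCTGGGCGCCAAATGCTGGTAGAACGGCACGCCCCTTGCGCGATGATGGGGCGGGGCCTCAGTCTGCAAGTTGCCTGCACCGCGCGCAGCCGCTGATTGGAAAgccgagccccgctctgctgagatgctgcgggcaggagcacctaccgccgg
Psmd13: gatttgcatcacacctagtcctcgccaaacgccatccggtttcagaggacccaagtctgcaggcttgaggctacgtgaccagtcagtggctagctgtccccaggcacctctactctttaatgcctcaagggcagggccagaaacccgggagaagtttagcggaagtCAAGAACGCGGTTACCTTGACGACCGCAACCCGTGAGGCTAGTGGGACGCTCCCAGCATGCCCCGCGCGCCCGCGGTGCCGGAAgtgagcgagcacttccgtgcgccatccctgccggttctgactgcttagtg

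The second set shows both RefSeq promoter windows of Psma6, with capitals on each CG dinucleotide. The upstream window (chr12:55383972-55384271, GRCm38.p6, plus strand) starts 14603 bp before the downstream one (chr12:55398575-55398874). In the mm9 table the CUFF start of Psma6 lies 14601 bp before its RefSeq start, so the upstream window corresponds to the CUFF start within 2 bp of spacing. The upstream window held 3 CG dinucleotides in 300 bases, a ratio of observed to expected CG of 0.19, and 46.7% G and C. The downstream window held 22, a ratio of 0.70, and 65.0% G and C.
Psma6 upstream: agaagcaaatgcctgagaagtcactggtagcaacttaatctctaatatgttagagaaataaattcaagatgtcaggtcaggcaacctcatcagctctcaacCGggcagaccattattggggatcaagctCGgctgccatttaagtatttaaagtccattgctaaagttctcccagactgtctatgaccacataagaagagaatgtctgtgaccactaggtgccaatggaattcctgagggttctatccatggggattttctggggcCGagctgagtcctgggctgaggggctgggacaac
Psma6 downstream: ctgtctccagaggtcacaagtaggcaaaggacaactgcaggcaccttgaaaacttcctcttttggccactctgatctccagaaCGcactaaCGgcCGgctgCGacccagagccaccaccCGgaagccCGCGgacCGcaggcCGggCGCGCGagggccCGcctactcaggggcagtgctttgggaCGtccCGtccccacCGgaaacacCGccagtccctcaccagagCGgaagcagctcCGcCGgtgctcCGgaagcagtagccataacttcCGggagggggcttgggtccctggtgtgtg

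Nearly every proteasome gene carried a code other than XX, in each class except the thymic one, which holds Psmb11 alone. This held for 48 of 49 genes (98.0%), against 62.3% of the 22426 genes with a RefSeq-derived model. Cytosolic ribosomal protein genes, another housekeeping complex, had it in 78 of 80 cases (97.5%). All 7 constitutive alpha subunits, all 7 constitutive beta subunits, the 3 immune subunits Psmb8, Psmb9 and Psmb10, all 6 ATPases, all 11 non-ATPase subunits and all 4 activators had it. So did the testis-specific Psma8, the inhibitor Psmf1, the 3 chaperones of 19S assembly, the 4 of 20S assembly and Psmc3ip. The single exception was Psmb11, the thymic catalytic subunit, whose 1 model (chromosome 14, 55244147 to 55248393) was coded XX. Of the 66 models, 2 were coded XX, that of Psmb11 and a CUFF model of Psmg3. Over all 50081 models, which include those without a symbol, 24313 were coded XX. Immune and testis-specific subunits thus had the same kind of code as constitutive ones.

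**Figure D1:**
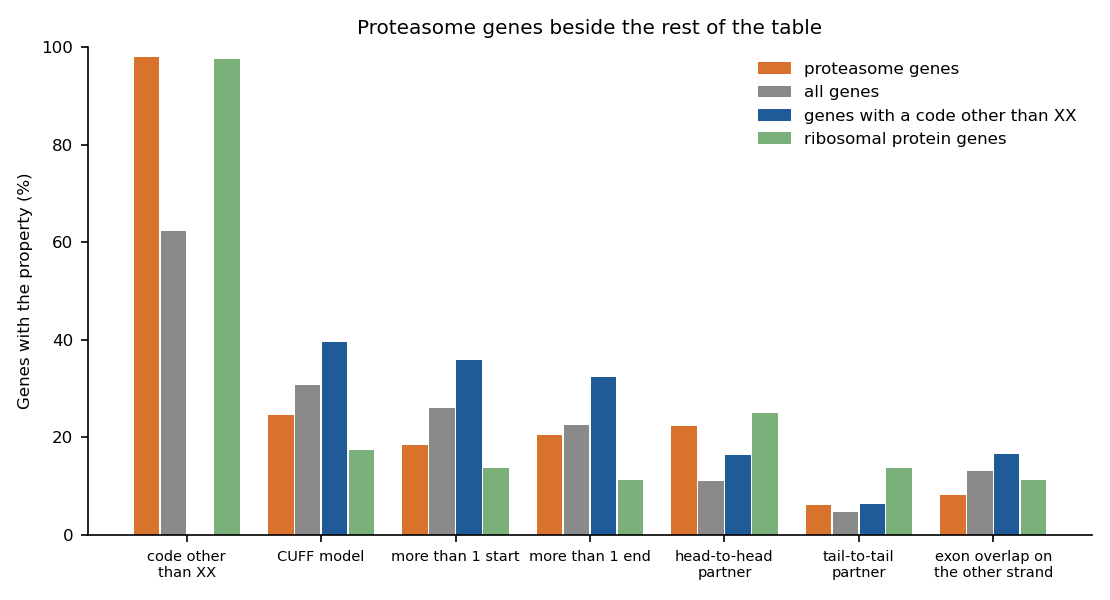
Share of genes (%) with each property, for the 49 proteasome genes, all genes with a symbol (for codes, all genes with a RefSeq-derived model), genes with a code other than XX, and cytosolic ribosomal protein genes. For codes the bar of genes with a code other than XX is left out; proteasome genes stand at 98.0% there against 62.3% of all genes, and at 22.4% against 11.1% for head-to-head partners.

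Proteasome transcripts were short at the median, with as many exons as those of other genes with a code other than XX. Over the 49 genes the longest model had a median spliced length of 1296 nt (quartiles 985 and 1723), against 2309 nt for all genes with a symbol and 2779 nt for the 14006 genes with a code other than XX. The median number of exons was 8 (quartiles 7 and 11), against 6 for all genes and 8 for genes with a code other than XX. The last exon, which usually holds the 3′ untranslated region, had a median of 331 nt against 1000 nt for all genes and 1184 nt for genes with a code other than XX. Ribosomal protein genes were shorter still, with medians of 776.5 nt spliced, 5 exons and a last exon of 197 nt. A single exon in the longest model was found for 1 of 49 genes, Psmb11, against 15.2% of all genes.

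Median lengths differed between the classes of subunit, which hold few genes and were not tested against each other. Constitutive beta subunits had medians of 949 nt and 6 exons, constitutive alpha subunits 1096 nt and 9 exons, ATPases 1547.5 nt and 11.5 exons, and non-ATPase subunits 1600 nt and 12 exons. The ATPases ranged from 1277 to 1782 nt and 11 to 14 exons, and the constitutive beta subunits from 731 to 1036 nt and 3 to 8 exons. The longest model of all was that of the activator Psme4, at 6442 nt and 47 exons over 108587 bp of chromosome 11. The base subunits Psmd1 (25 exons, 3256 nt) and Psmd2 (21 exons, 3053 nt), which scaffold the 19S regulator, came next by exon number. At the short end, the assembly chaperone Psmg4 had 541 nt and 3 exons.

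**Figure D2:**
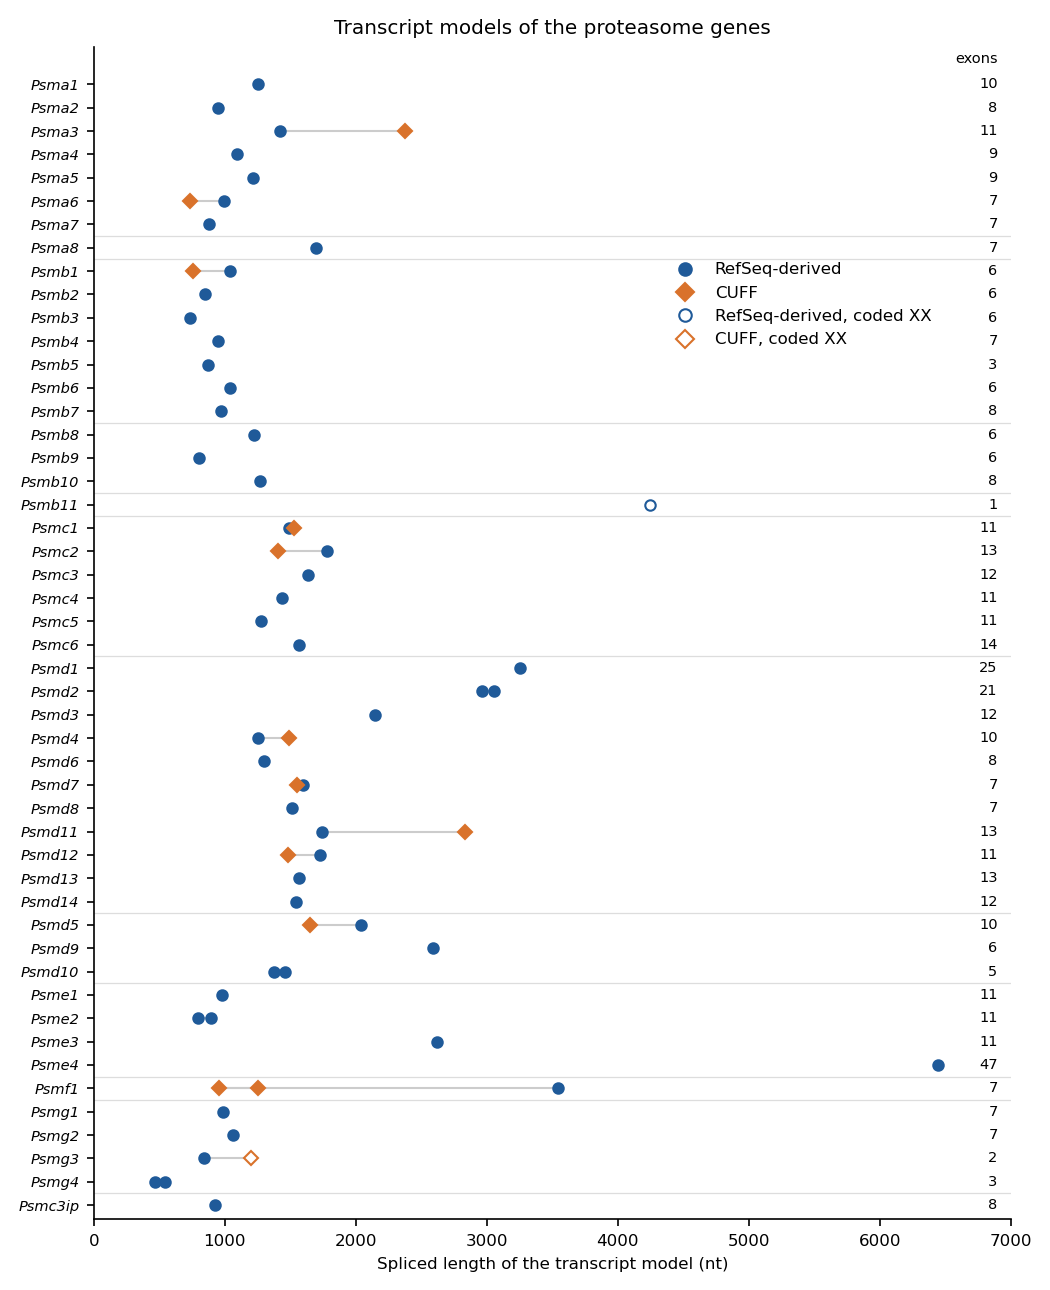
Spliced length (nt) of each of the 66 transcript models of the 49 proteasome genes, ordered by class, with circles for RefSeq-derived and diamonds for CUFF models, open symbols for models coded XX, and the exon number of the longest model at the right. Psme4 stands alone at 6442 nt, and the single-exon Psmb11 is the only open circle.

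The special subunits differed from their constitutive counterparts in spliced length, and some also in exon number, as the RefSeq-derived models give it. Psma8 (chromosome 18, 14864660 to 14920808) had 7 exons, as did Psma7 (chromosome 2, 179771081 to 179777107). Its spliced model measured 1693 nt against 881 nt, its last exon 953 nt against 198 nt, and its span 56149 bp against 6027 bp. Among the catalytic beta subunits, Psmb5, the chymotrypsin-like subunit, had 3 exons and 871 nt, its immune counterpart Psmb8 had 6 exons and 1223 nt, and its thymic counterpart Psmb11 had 1 exon of 4247 nt. Psmb6 (6 exons, 1036 nt) and its counterpart Psmb9 (6 exons, 806 nt) had the same exon number, as had Psmb7 (8 exons, 969 nt) and Psmb10 (8 exons, 1270 nt). Psmb7 spanned 55861 bp and Psmb10 2665 bp. Psma8, Psmb8, Psmb9, Psmb10 and Psmb11 had 1 model, 1 start and 1 end each. This was the most common case among the proteasome genes, of which 33 of 49 had 1 model. The share of all genes with 1 model was not counted. A CUFF model was found for 24.5% of proteasome genes and 30.7% of all genes. Among the activators, Psme1 and Psme2, which form the interferon-inducible PA28 ring, had 11 exons each, as had Psme3, the nuclear PA28 subunit. Psme3 had the longer transcript, 2619 nt against 977 and 897 nt, and its last exon measured 1739 nt against 227 nt in Psme1 and 126 nt in Psme2.

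Some proteasome genes lay close to each other. The constitutive Psmb5 and its thymic counterpart Psmb11 point away from each other on chromosome 14, with starts 7315 bp apart. Psmb9 and Psmb8 lie on either side of Tap1 on chromosome 17 within the major histocompatibility complex, and their starts are 10865 bp apart. The PA28 genes Psme1 and Psme2 converge on chromosome 14 with 5912 bp between their ends, an interval that holds most of Emc9. The next closest neighbours were Psmb4 and Psmd4, with a gap of 145.7 kb on chromosome 3. In all, the genes lay on 16 chromosomes, with 9 on chromosome 11 and 6 each on chromosomes 2 and 14.

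CUFF models, which differ from RefSeq in some edge or splice, were found for 12 of 49 proteasome genes (24.5%), against 30.7% of all genes and 39.5% of genes with a code other than XX. When only CUFF models with a code other than XX were counted, 11 of 49 genes had one (22.4%), close to the 23.1% of all genes. Ribosomal protein genes had one in 14 of 80 cases (17.5%). The 12 genes were Psma3 and Psma6 of the alpha ring, Psmb1 of the beta ring, the ATPases Psmc1 and Psmc2, and the non-ATPase subunits Psmd4, Psmd7, Psmd11 and Psmd12. The others were the assembly chaperones Psmd5 and Psmg3 and the inhibitor Psmf1. More than 1 RefSeq-derived model was found for 4 genes (8.16%, against 16.1% of genes with such a model): Psmd2, Psmd10, Psme2 and Psmg4. The remaining 33 genes had 1 model each.

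More than 1 start was found for 9 of 49 genes (18.4%, against 26.0% of all genes) and more than 1 end for 10 of 49 (20.4%, against 22.5%). Positions no more than 50 nt apart were merged. Both shares were below those of genes with a code other than XX, 35.8% for starts and 32.3% for ends. Psmf1 had 3 starts and 2 ends. Psme2 was the only gene whose second start came from RefSeq, and every second end came from a CUFF model. A single start and a single end were found for 36 of the 49 genes, and the share over all genes was not counted.

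Starts of CUFF models lay over 50 nt from every RefSeq start in 8 of the 12 genes (66.7%), against 77.3% of the 6390 genes with both kinds of model. Shifts upstream were seen in 6 of 12 genes (37.9% in the background) and shifts downstream in 3 of 12 (46.2%), and Psmf1 had both. The largest was that of Psma6, an alpha ring subunit, whose CUFF model began 14601 nt upstream (chromosome 12, 56485211). It replaced the first RefSeq exon of 167 nt with 1 of 104 nt and shared the other 5 introns. As shown above, a RefSeq promoter window of GRCm38.p6 corresponds to this start by its spacing, while the RefSeq-derived model of the series lacks it. Psmc1, an ATPase, had a CUFF start 2189 nt upstream, with an added first exon of 70 nt in front of the 9 RefSeq introns, all of which it kept. Psmf1, which inhibits the 20S core in vitro, had 1 CUFF start 2901 nt upstream and another 11341 nt downstream. The downstream model kept only the last 3 of 6 RefSeq introns. Psmd7, a subunit that pairs with the deubiquitinase Psmd14, started 248 nt downstream with a first exon of 310 nt inside the first RefSeq intron. Psmc2, another ATPase, started 1824 nt downstream, but its first exon was 2 nt long, and only 24 of 9495 CUFF models with a symbol had a first exon of at most 5 nt. Psmc2 also had more than 1 RefSeq promoter window in GRCm38.p6, and their spacing was not compared with this start. Smaller upstream shifts were those of the ubiquitin receptor Psmd4 (181 nt), of Psmd11 (132 nt) and of Psmg3 (52 nt). In the other 4 genes the CUFF start lay 0 nt (Psma3), 2 nt (Psmd5), 22 nt (Psmd12) and 27 nt (Psmb1) from the RefSeq start.

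**Figure D3:**
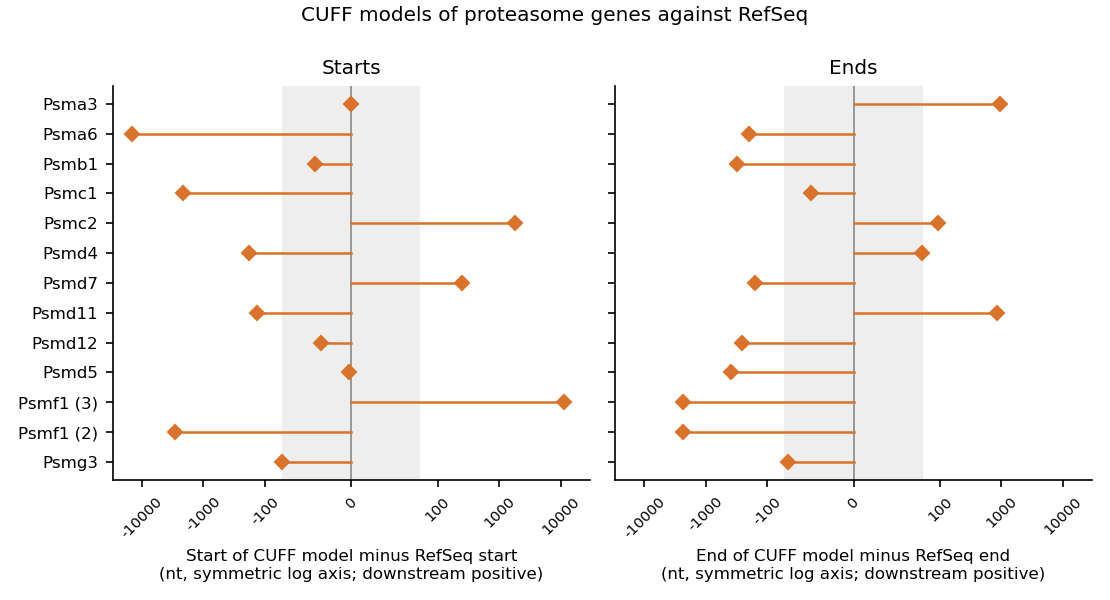
Position of the start (left) and end (right) of each of the 13 CUFF models of proteasome genes relative to the nearest RefSeq start or end, in nt on a symmetric log axis with downstream positive; the grey band marks 50 nt on either side. Psma6 and Psmf1 have the farthest starts, 14601 nt upstream and 11341 nt downstream, and the ends of Psmf1 lie 2340 nt upstream.

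Ends of CUFF models lay over 50 nt from every RefSeq end in 10 of the 12 genes (83.3%, against 72.8% in the background). With a limit of 100 nt this was 8 of 12 (66.7%, against 68.5%), so the order of the shares depended on the limit. At the 50 nt limit, the CUFF end lay upstream in 6 of 12 genes, which shortens the last exon (49.3% in the background). It lay downstream in 4 of 12 (27.0%). In Psmf1, both CUFF models ended 2340 nt upstream, and the last exon was 284 nt against 2624 nt in RefSeq. Ends also lay upstream in Psmd5 by 392 nt, Psmb1 by 310 nt, Psmd12 by 260 nt, Psma6 by 197 nt and Psmd7 by 155 nt. The last exon of the Psma6 model was only 26 nt long. Ends lay downstream in Psma3, by 940 nt, and in Psmd11, by 841 nt, and the last exons there measured 1513 and 1523 nt against 573 and 424 nt in RefSeq. Psmc2 was extended by 92 nt and Psmd4 by 51 nt, just past the limit, while Psmg3 at 48 nt upstream fell just inside it and Psmc1 ended 31 nt upstream. In 12 of 13 models, all but that of Psmd11, the last exon opened at the same splice site as in RefSeq. The share over all genes was not counted for this.

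The introns of CUFF models were compared with RefSeq for proteasome genes alone, so no share over all genes stands beside these counts. Of the 13 CUFF models, 3 had exactly the RefSeq introns (Psmb1, Psmd5 and Psmd12) and differed in their edges alone. An intron not in RefSeq was found in 7, and in 5 of these it involved the first exon: Psma6, Psmc1, Psmc2, Psmd7 and the upstream model of Psmf1. In Psma3 and Psmd4 the other intron was internal and left the spliced transcript 19 and 9 nt longer between the first and last exon. A whole RefSeq intron lay within an exon in 2 models, the last intron in Psmd11 and the first in Psmg3, whose CUFF model was the one coded XX.

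**Figure D4:**
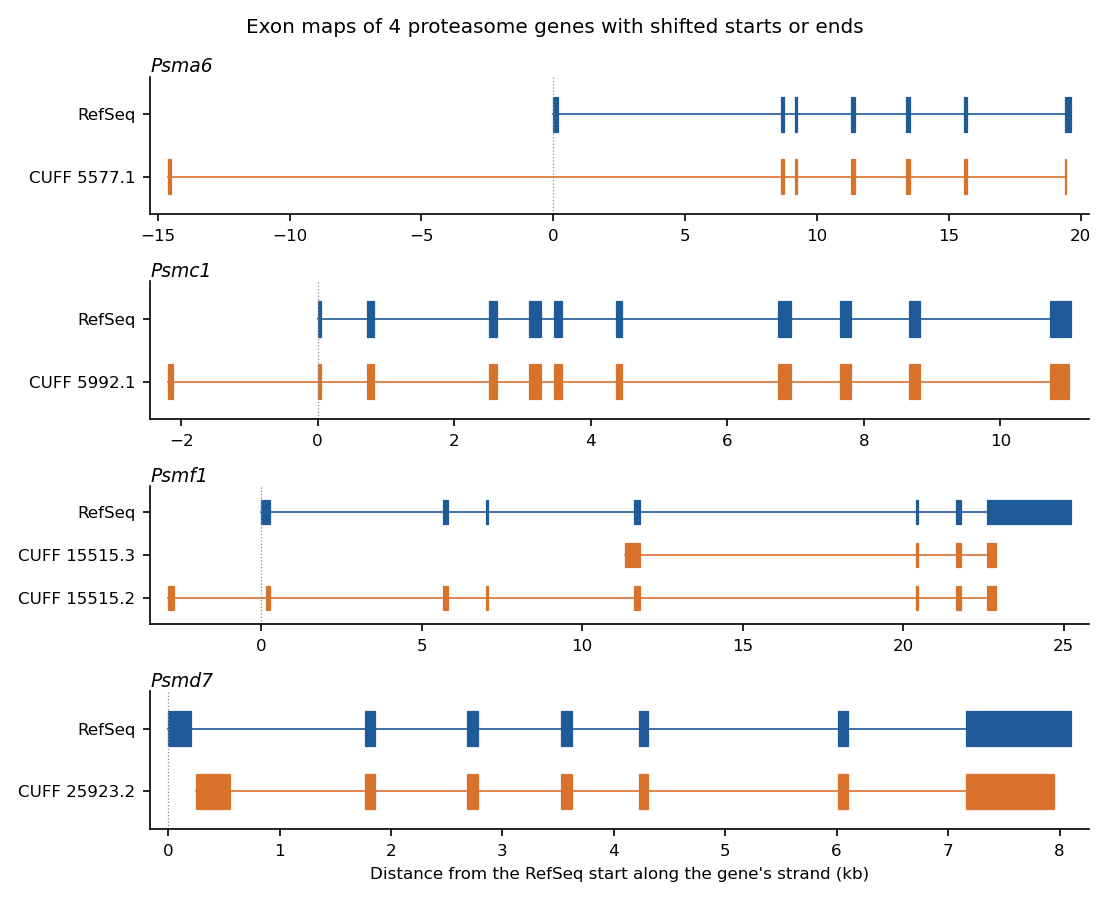
Exon maps to scale of Psma6, Psmc1, Psmf1 and Psmd7, with exons as boxes and introns as lines, RefSeq-derived models in blue and CUFF models in orange, by distance from the RefSeq start in kb along the gene's strand. First exons absent from the mm9 RefSeq models lie 14601 nt upstream in Psma6, 2189 nt upstream in Psmc1, 2901 nt upstream in Psmf1 and 248 nt downstream in Psmd7.

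A head-to-head partner, meaning a transcript on the other strand whose start lies upstream by 1 to 500 bp, was found for 11 of 49 proteasome genes (22.4%), against 11.1% of all genes and 16.3% of genes with a code other than XX. The share of ribosomal protein genes was 25.0% (20 of 80), close to that of the proteasome genes. Among the classes, 4 of 6 ATPases had a partner, against 1 of 11 non-ATPase subunits (Psmd13), 2 of 7 constitutive alpha subunits, 1 of 7 constitutive beta subunits (Psmb1), 1 of 3 immune subunits, 1 of 3 chaperones of 19S assembly and 1 of 4 of 20S assembly. The activators and Psma8 had none. With partners that have a gene symbol alone, the ATPases stood at 2 of 6 (Psmc2 and Psmc5) and the non-ATPase subunits at 1 of 11, and these small classes were not tested against each other. The partner had a gene symbol for 8 of 49 genes (16.3%, against 8.65% of all genes) and was a single-exon CUFF-alone model for 3.

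Partners with a symbol had varied roles. The closest starts were those of Psma7 and Ss18l1, a chromatin remodelling subunit, 81 bp apart on chromosome 2 (179777107 and 179777188), and of Psmd13 and Sirt3, a mitochondrial deacetylase, 85 bp apart on chromosome 7 (148068293 and 148068208). Psma2 faced Mrpl32, a mitochondrial ribosomal protein, whose CUFF model started 109 bp and whose RefSeq model started 205 bp away. Psmc2 faced Dnajc2, a ribosome-associated chaperone, at 118 bp. Psmd10 faced Atg4a, an autophagy protease, at 206 bp, and this partner was coded XX while Psmd10 was not. Psmb9 faced Tap1, a subunit of the peptide transporter that feeds MHC class I, at 226 bp. Psmc5 faced Ftsj3, which acts in ribosomal RNA processing, at 383 bp, and the assembly chaperone Psmg2 faced the centrosomal gene Cep76 at 263 bp. Between the RefSeq promoter windows of GRCm38.p6, the starts of 3 of these pairs lay closer than in the mm9 table, by 282 bp for Psmc5, 62 bp for Psma7 and 10 bp for Psmd10. The RefSeq distances of Psma2, Psmb9 and Psmd13 were the same, and the pairs of Psmc2 and Psmg2 were not compared.

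The 3 CUFF-alone partners faced the CUFF start of Psmb1 at 84 bp, Psmc4 at 225 bp and Psmc3 at 434 bp. They were single-exon transcripts of 509, 1004 and 1413 nt, all coded XX. With no splice site and no stated strand of the reads, the orientation of these 3 partners is uncertain. Just outside the window, Psme2 had an opposite-strand start of Rnf31 at 689 bp. Over all 49 genes the nearest such start lay at a median of 24730 bp, and for 38 genes it was farther than 500 bp. Psma8 had its nearest at 23237 bp.

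**Figure D5:**
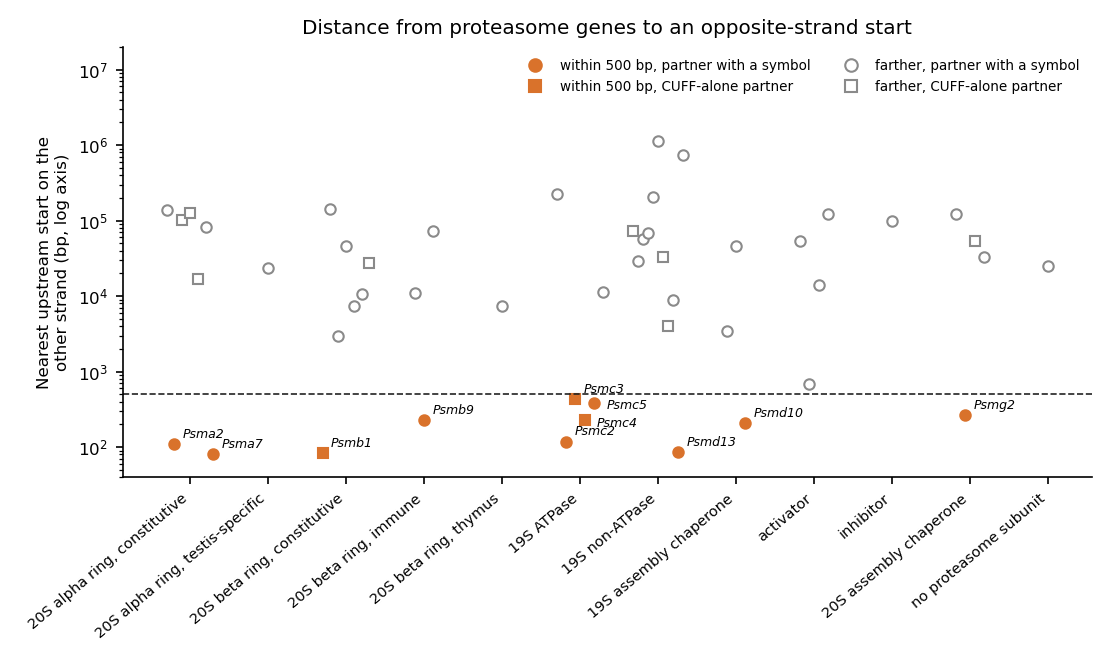
Distance (bp, log axis) from each of the 49 proteasome genes to the nearest upstream start on the other strand, by class, with filled orange symbols within 500 bp (dashed line), circles for partners with a gene symbol and squares for CUFF-alone partners. The ATPases hold 4 of the 11 genes under the line, and the closest pairs are at 81 bp (Psma7), 84 bp (Psmb1) and 85 bp (Psmd13).

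Close ends were about as common as among all genes. A tail-to-tail partner, whose end on the other strand lies 1 to 500 bp beyond, was found for 3 of 49 genes (6.12%, against 4.79% of all genes). Psmc5 met Smarcd2 at 59 bp, Psmd8 met Ggn, a gametogenesis gene of the testis, at 254 bp, and Psmd13 met Cox8b at 300 bp. Psmc5 and Psmd13 thus had close neighbours at both ends. Exons overlapped a model on the other strand in 4 of 49 genes (8.16%, against 13.1%). The overlaps were 4 bp between Psme1 and Emc9, 45 bp between Psma4 and AY074887, 51 bp between Psmc3ip and Mlx, and 158 bp between Psma5 and a CUFF-alone model. That model was a single exon of 15048 nt, coded XX, whose start lay inside the first exon of Psma5. The strand of the reads behind the models is not given, so models that overlap in this way are uncertain. Genes inside proteasome introns were Htr2b in Psmd1 and a CUFF model of Gm15542 in Psmd13. The microRNA gene Mir686 lay within an exon of Psmb5.

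Promoter windows from RefSeq (GRCm38.p6) were matched by symbol for 41 of 49 proteasome genes, 44 windows in all. Those without a window were Psma8, Psmb1, Psmb2, Psmb7, Psmc3, Psmd3, Psmd7 and Psmg2. The 44 windows had a median G and C content of 58.2% (range 45.7 to 77.0%), against 52.7% over all 32851 windows. Their median ratio of observed to expected CG was 0.75 against 0.38. The lowest ratios were those of Psmb11 (0.17), Psmb10 (0.19) and the upstream window of Psma6 (0.19), and the ATPases had a median of 0.95. The GC box GGGCGG was found on either strand in 24 of 44 windows (54.5%), against 35.7% of all windows. CCAAT occurred in 15 (34.1%, against 37.4%) and TATAAA in 4 (9.09%, against 13.6%): Psmb4, Psmb8, Psmd1 and Psmd6. TGACNNNGC, the core of the antioxidant response element through which Nfe2l1 is known to act on proteasome genes, occurred in 6 (13.6%, against 12.4%): Psmb5, Psmb6, Psmc6, Psmd9, Psmd12 and Psme4. TGACGTCA, the cAMP response element, was in 0 of 44 windows, against 1.79% of all. AACNG, the core motif of MYB factors, was in 38 (86.4%, against 80.3%). Both strands were searched for each motif, and no motif in this set contains another. In the sequences printed above, a match to CCAAT stood in Psma2, 54 bases before the start, and in Psmb9, where it began 8 bases before it. The upstream window of Psma6 held 2 such matches and the downstream window 0. A match is a description of letters and shows no binding.

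Most genes that work with the proteasome also carried codes other than XX. Of 27 listed partners of the proteasome, 24 were found under the symbols searched, and all 24 had a code other than XX, against 62.3% of all genes with a RefSeq-derived model. Sem1 and Ecpas are newer names of Shfm1 and AI314180, which were found, and no model under the symbol Paaf1 was analysed here. Among them, Pomp, the maturation factor of the 20S core, had 1 model with 6 exons and 734 nt. CUFF models were found for 11 of the 24 (45.8%, against 30.7% of all genes), a second start for 10 (41.7%, against 26.0%) and a second end for 10 (41.7%, against 22.5%). Among genes with a code other than XX, these shares were 39.5%, 35.8% and 32.3%. Nfe2l1, a transcription factor of proteasome genes, had 6 RefSeq-derived models and 1 CUFF model, with 4 starts and 2 ends. The deubiquitinase Uchl5 (partner Trove2) and Nfe2l1 (a CUFF-alone partner) were the 2 genes with a head-to-head partner (8.33%, against 11.1% of all genes). Of the 7 genes of MHC class I loading, 6 had a code other than XX (85.7%, against 62.3%): Tap1, Tapbp, B2m, Erap1, Calr and Pdia3. Tap2, which forms the peptide transporter with Tap1, had models coded XX alone.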

How the data were processed

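The series has CAGE and PAS-Seq libraries from wild-type mouse testes (3 libraries, 1 per group; PAS-Seq reads of 100 nt, per the labels). The authors deposited 1 headerless table of 12 columns, with 1 transcript model per line: positions in bp, exon numbers and exon lengths. TopHat2 2.0.4 and mm9 were used, per the submitters' processing notes; the assembly, coding and filtering of models are not described there. No count, signal or other value per library was analysed, so no test was run and no interval given.

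Models were grouped by gene symbol with Python 3.11.15 and drawn with matplotlib 3.10.9. Starts or ends within 50 nt were merged, pairs were sought within 500 bp, and exon overlaps counted from 1 bp. The counting was checked on made-up models with known answers. The rule for named genes takes all proteasome genes, their head-to-head, tail-to-tail or exon-overlapping partners, and 2 lists of partner genes. Htr2b, Gm15542, Rnf31, Trove2 and the genes of the tissue check fall outside it and were chosen after their values were seen. Members and lists were chosen with earlier results of these data known. Promoter windows (250 bases before to 50 after a start) and motif searches came from RefSeq, GRCm38.p6, whose coordinates were never mixed with mm9. Of the 49 genes, 8 had no window.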

Additional observations from a re-analysis of the deposited data

How the results depend on the processing

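No paired analysis was possible because the table holds no value per library and each group has 1 library. Of 24 alternative settings for 10 results, 19 left the number of proteasome genes within 1.5 times its value, or the median exon number of 8 as it was. That limit does not take in the share over all genes, which can move with the setting. For ends, the order of the shares changed in settings within that limit. CUFF ends over 100 nt from every RefSeq end were found in 8 of 12 genes (66.7%, against 68.5% in the background). With ends merged within 20 nt, 12 of 49 genes had more than 1 end (24.5%, against 23.2% of all genes). The number with more than 1 start fell from 9 to 1 and with more than 1 end from 10 to 0 when RefSeq-derived models alone were counted (6.51% and 3.24% of all such genes), which removes the CUFF models. Against 3 genes within 500 bp, tail-to-tail partners numbered 1 within 250 bp (2.04%, against 2.97% of all genes) and 7 within 1000 bp (14.3%, against 7.49%). Exon overlaps of at least 50 bp on the other strand numbered 2 (4.08%, against 11.7%), from 4. Head-to-head partners numbered 8 within 250 bp (16.3%, against 8.68%) and 12 within 1000 bp (24.5%, against 12.8%). Without microRNA and olfactory or vomeronasal receptor genes, 68.1% of genes had a code other than XX. Depth is unknown, so a gene with no CUFF model cannot be told apart from one with too few reads to assemble it.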
